A study of Mus musculus with 8 samples.

Results

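The insulin-like growth factor (IGF) genes of the ovary were examined in lethal yellow (LY) mice given the insulin-sensitizing drug pioglitazone. The group comprised 10 genes, the ligands Igf1 and Igf2, the receptors Igf1r and Igf2r, and the binding proteins Igfbp1 to Igfbp6. They were taken by gene symbol from the array annotation, which names 18069 genes, and were read by 13 of the 36227 probes, with 2 probes each for Igf1r, Igfbp4 and Igfbp5. All mice were females of the C57BL/6J Ay/a genotype, in which the Ay allele of agouti is active in most tissues and leads to obesity and insulin resistance with age. From 120 to 180 days of age, 4 mice received pioglitazone by daily gavage for 60 days and 4 mice received the DMSO vehicle alone. The labels give a dose of 0.1 mg per day and the paper's text a lower one. One ovary per mouse was hybridized to 1 CodeLink whole mouse array of 30-base probes, without pooling, and the values are linear intensities in units of the array median. Untreated mice were not analysed here, so all 8 ovaries came from obese Ay/a females.

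IGF1 and IGF2 are small secreted hormones related to insulin. Both act through the receptor tyrosine kinase encoded by Igf1r, while the receptor encoded by Igf2r carries mannose 6-phosphate tagged enzymes to lysosomes and removes IGF2 from the cell surface. The 6 binding proteins hold most of the IGF outside cells and set how much can reach the receptors, and proteases such as pregnancy-associated plasma protein A, the product of Pappa, release it again. In the rodent ovary, Igf1 is made by granulosa cells of growing follicles and amplifies the response to follicle-stimulating hormone, and Igfbp4 and Igfbp5 have been linked to follicles that stop growing. Insulin is known to repress Igfbp1 in liver through forkhead factors, which makes this family a natural set to read in a study of an insulin sensitizer.

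The upstream sequences of 4 members are shown for context, and no value given later was computed from them. Igfbp1 carries the known insulin response element, and Igf2r, Igfbp3 and Igfbp4 are the members of the pairs compared between mice. Each is the 250 bases before an annotated transcript start, from RefSeq on GRCm38.p6, written 5′ to 3′ on the strand of the gene. The windows of Igfbp3 and Igfbp4 lie within the span annotated for the whole gene, and those of Igfbp1 and Igf2r directly before it. Igfbp1 lies at chr11:7197537-7197786 (plus strand), Igfbp4 at chr11:99040994-99041243 (plus strand), Igfbp3 at chr11:7213924-7214173 (minus strand) and Igf2r at chr17:12769707-12769956 (minus strand). In Igfbp1 the first stretch of capitals marks CAAAACA and the second one the facing arm TATTTTG of the insulin response element. In Igfbp4 they mark the TATA box, spelled TATAAA. In Igf2r they mark the GC box (GGGCGG), the E box (CACGTG) and the nuclear receptor half-site (AGGTCA), where neighbouring matches run into each other. The Igfbp3 window held none of the motifs searched and has no capitals.
Igfbp1: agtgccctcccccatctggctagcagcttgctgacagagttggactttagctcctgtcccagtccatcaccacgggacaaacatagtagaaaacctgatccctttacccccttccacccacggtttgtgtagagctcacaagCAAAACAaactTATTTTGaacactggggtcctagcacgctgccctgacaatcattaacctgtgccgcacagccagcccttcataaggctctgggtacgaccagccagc
Igfbp4: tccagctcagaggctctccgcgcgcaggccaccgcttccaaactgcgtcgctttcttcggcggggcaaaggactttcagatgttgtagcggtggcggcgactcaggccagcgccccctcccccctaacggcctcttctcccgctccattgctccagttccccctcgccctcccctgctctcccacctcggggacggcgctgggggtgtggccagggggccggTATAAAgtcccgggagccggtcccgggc
Igf2r: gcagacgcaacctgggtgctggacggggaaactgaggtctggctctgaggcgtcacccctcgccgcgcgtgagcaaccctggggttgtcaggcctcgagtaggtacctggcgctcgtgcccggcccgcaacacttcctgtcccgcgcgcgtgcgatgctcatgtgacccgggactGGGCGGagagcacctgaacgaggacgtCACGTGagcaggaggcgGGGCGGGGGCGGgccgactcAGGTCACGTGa
Igfbp3: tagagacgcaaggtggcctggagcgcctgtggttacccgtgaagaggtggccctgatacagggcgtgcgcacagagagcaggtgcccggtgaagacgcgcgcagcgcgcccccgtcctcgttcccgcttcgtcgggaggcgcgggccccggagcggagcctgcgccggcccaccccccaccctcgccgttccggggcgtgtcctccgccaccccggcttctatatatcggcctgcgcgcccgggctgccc

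Motifs were searched on both strands in the same window of all 32851 promoters. CAAAACA was present in 5.56% of them and TATTTTG in 3.95%, and among the 14 promoter windows of the 10 members each was found in Igfbp1 alone. TATAAA was present in 12.4% of all windows and, among members, in Igfbp4, where it began 28 bases before the start, and in Igfbp6. AGGTCA was present in 14.0% of all windows and in those of Igf1, Igf1r, Igf2 and Igf2r, where the Igf2r match overlaps 1 of 2 E boxes. GGGCGG was present in 32.7% of all windows and in those of Igf1r, Igf2, Igf2r and Igfbp2, and CACGTG in 6.02% and in those of Igf2r and Igfbp2. The direct repeat of AGGTCA with 1 base between the copies, the form bound by PPAR and RXR together, was in 0.0335% of all windows and in 0 of the 14. A match describes letters in the window and not a bound site.

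The array medians as deposited lay between 1.007 and 1.014, and 47 to 211 spots per array were missing, none of them at a member probe. Arrays are limited in precision by their number, 4 per group. Replicates are separate mice. Granulosa markers had positive log2 fold changes in 12 of 12 tested (median 0.31) and luteal markers negative ones in 8 of 8 (median -0.54). At unadjusted p under 0.05 limma called 1 granulosa and 0 luteal markers, while 4.85% of all named genes were called by their brightest probe. In a fit with the replicate number of the mice as a block, 3 granulosa and 4 luteal markers were called, and 8.02% of all named genes. The granulosa sum ran from 160 to 217 with vehicle and from 185 to 286 with pioglitazone, and the luteal sum from 432 to 594 and from 356 to 506. Adipocyte markers were highest in pioglitazone mouse 1, where Adipoq was at 40.2 against 1.54 to 10.7 in the other mice. The part of follicle, corpus luteum or fat content in the results was not tested, and in whole ovary fewer cells of a type and less RNA per cell cannot be told apart. Of 6 measured markers of hepatocytes, which make much of the circulating IGF1, only Alb (serum albumin) was under 0.2, taken here as the limit of sensitivity, in all 8 mice. The sum of the 6 ran from 29.3 to 40.2 with vehicle and from 29.0 to 42.9 with pioglitazone, most of it from Apoa1, an apolipoprotein gene, which reached 37.4.

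No change of an IGF gene with pioglitazone passed adjustment. Of the 13 probes, all of which were tested, 1 was called by limma at unadjusted p under 0.05, the dimmer Igfbp5 probe, which was lower with pioglitazone. Over all 30634 probes tested, 5.5% were called at this level, 3.53% lower and 1.97% higher, so that the count of members was near the background. The higher calls numbered 603 and the lower 1082, against 685 and 800 under quantile normalization. In every member the values of both groups overlapped. Over all probes tested, 4.59% had groups that did not overlap, so for 13 probes this too was near the background. Negative log2 fold changes were found in 9 of the 13 probes (55.7% of all probes tested), with a median of -0.17 against -0.03 for all probes. At adjusted p under 0.05, 0 of 13 members and 0 of 30634 probes were called by limma, and the smallest adjusted p over the array was 0.599.

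**Figure D1:**
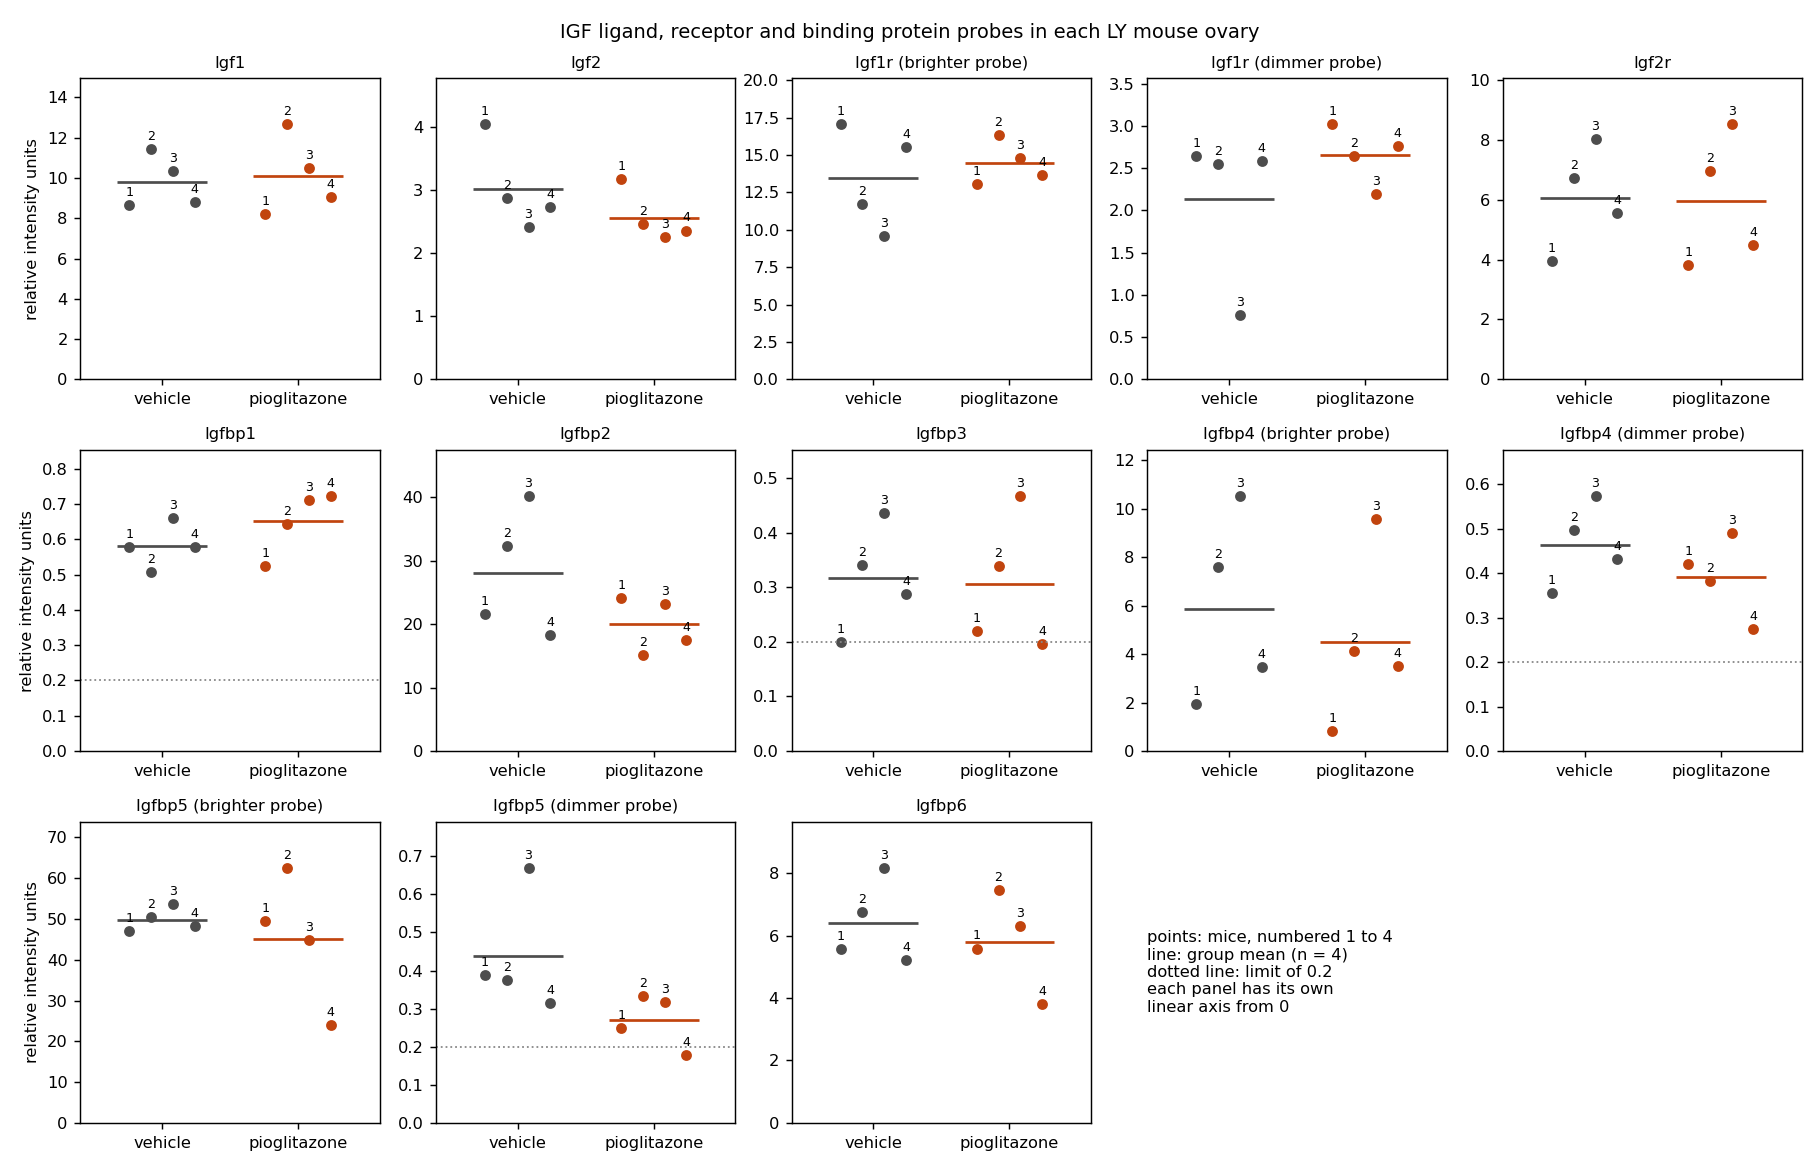
Relative intensity units (linear axes from 0, a scale for each panel) of the 13 IGF probes in each vehicle-treated and pioglitazone-treated mouse. Each numbered point is 1 mouse, lines give the mean of 4 mice, and dots trace the sensitivity limit of 0.2. The groups overlapped in each panel, and the brighter Igfbp4 probe ran from 0.83 to 10.5.

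The ligand Igf1 was among the steadiest members. Its values were 8.65, 11.4, 10.3 and 8.80 in vehicle-treated mice 1 to 4 and 8.20, 12.7, 10.5 and 9.04 in pioglitazone-treated mice 1 to 4. Mouse 2 was the highest and mouse 1 the lowest in both groups, and the 8 values differed by at most 1.54-fold. The means were 9.80 ± 1.32 and 10.1 ± 2.0 (SD, n = 4 each). This gave a log2 fold change of 0.03 (standard error 0.18, adjusted p = 0.981 in limma). The 95% interval of the ratio ran from 0.777 to 1.35, so with 4 mice per group a change of Igf1 within these bounds remains compatible with the values.

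Igf2, the ligand that is abundant before birth and imprinted, was at 4.04, 2.88, 2.41 and 2.73 in vehicle-treated mice and at 3.17, 2.46, 2.26 and 2.36 in pioglitazone-treated mice. Mouse 1 was the highest in each group, and the groups overlapped. The means were 3.02 ± 0.71 and 2.56 ± 0.41 (SD, n = 4 each), a ratio of 0.850. The log2 fold change was -0.22 (standard error 0.19, adjusted p = 0.879 in limma). Without vehicle replicate 1 it was -0.07. H19, the noncoding RNA gene of the same imprinted domain, had means of 7.44 and 6.85 on its brightest probe.

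Igf1r, which encodes the signalling receptor for both ligands, had a brighter probe at 17.1, 11.7, 9.59 and 15.6 in vehicle-treated and at 13.0, 16.3, 14.8 and 13.6 in pioglitazone-treated mice. Its dimmer probe was at 2.64, 2.55, 0.762 and 2.58 in vehicle-treated and at 3.02, 2.64, 2.19 and 2.76 in pioglitazone-treated mice. On both probes vehicle mouse 3 was the lowest of all 8 mice, and on the dimmer probe it stood apart from the other 7. On the log2 scale the brighter probe differed by 0.13 (standard error 0.20, adjusted p = 0.924 in limma) and the dimmer by 0.47 (standard error 0.38, adjusted p = 0.876 in limma). Without vehicle replicate 3 they were -0.02 and 0.03. The insulin receptor gene Insr was also lowest in vehicle mouse 3, at 1.57 against 2.09 to 2.88 in the other 7 mice.

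Igf2r, the clearance receptor for IGF2, was at 3.94, 6.74, 8.01 and 5.57 in vehicle-treated mice and at 3.81, 6.95, 8.51 and 4.48 in pioglitazone-treated mice. In both groups the order of mice from low to high was 1, 4, 2 and 3, and the range within each group was more than 2-fold. The means were 6.06 ± 1.73 and 5.94 ± 2.18 (SD, n = 4 each), and the log2 fold change was -0.06 (standard error 0.30, adjusted p = 0.980 in limma). The sign turned under quantile (0.02) and cyclic loess (0.02) normalization. The enzymes that mannose 6-phosphate receptors carry were measured as Ctsd, Ctsl and Ctsb, the lysosomal proteases cathepsin D, L and B, with means of 55.6 and 48.7, 60.4 and 63.5, and 30.2 and 28.9. Gnptab, which makes the mannose 6-phosphate tag, had means of 12.6 and 12.7, and 0 of these 4 genes were called.

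**Figure D2:**
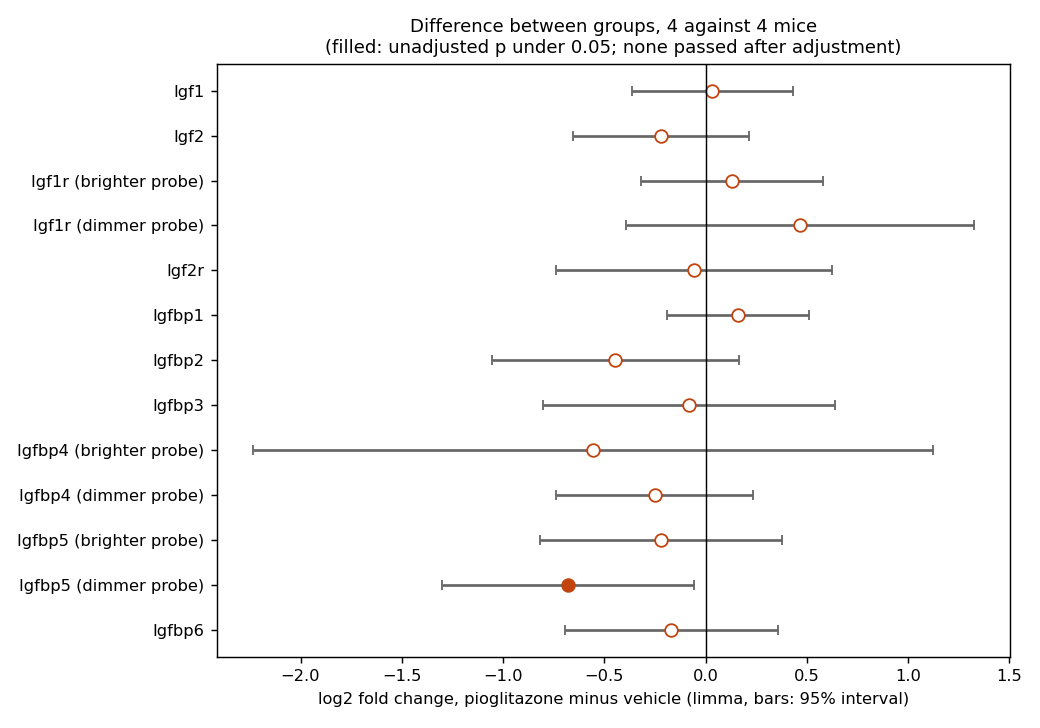
Log2 fold change of pioglitazone minus vehicle for each IGF probe (points) with the 95% interval from limma (bars), 4 mice per group. The filled point, the dimmer Igfbp5 probe, is at -0.68 and is the 1 probe called at unadjusted p under 0.05, and the interval of the brighter Igfbp4 probe is the widest, from -2.23 to 1.12.

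Igfbp5, a binding protein that also attaches to extracellular matrix, gave the call. Its dimmer probe was at 0.389, 0.375, 0.669 and 0.315 in vehicle-treated and at 0.249, 0.333, 0.316 and 0.178 in pioglitazone-treated mice. Vehicle mouse 3 was the highest, pioglitazone mouse 4 was under the limit of 0.2, and the groups overlapped because vehicle mouse 4 was below pioglitazone mice 2 and 3. The means were 0.437 ± 0.158 and 0.269 ± 0.071 (SD, n = 4 each), a ratio of 0.616. The log2 fold change was -0.68 (standard error 0.28, unadjusted p = 0.0353 and adjusted p = 0.837 in limma), and the 2-sided exact permutation p over the 70 assignments of mice was 0.0857. The unadjusted call was lost without vehicle replicate 1 or 3 (-0.72 and -0.45) or pioglitazone replicate 1 or 4 (-0.66 and -0.49), with array weights (-0.34) and with the test named in the methods.

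The brighter Igfbp5 probe did not give the same call. It was at 47.0, 50.6, 53.6 and 48.2 in vehicle-treated and at 49.4, 62.5, 44.9 and 24.1 in pioglitazone-treated mice. The vehicle values lay close together, while pioglitazone mouse 2 was the highest and pioglitazone mouse 4 the lowest of all. Between the groups the log2 fold change was -0.22 (standard error 0.26, adjusted p = 0.905 in limma), and without pioglitazone replicate 4 it was 0.06. For the mean over both probes it was -0.45 (unadjusted p = 0.107 in limma).

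Igfbp4, a binding protein that inhibits IGF action and is cut by the protease from Pappa, varied most between mice. Its brighter probe was at 1.94, 7.58, 10.5 and 3.47 in vehicle-treated and at 0.83, 4.13, 9.57 and 3.50 in pioglitazone-treated mice. The highest and lowest of the 8 values differed 12.7-fold, with mice 2 and 3 above mice 1 and 4 in both groups. The residual SD within groups was 1.30 on the log2 scale, larger than in 99.3% of the probes tested, where the median was 0.29. The means were 5.88 ± 3.90 and 4.51 ± 3.66 (SD, n = 4 each). Pioglitazone minus vehicle was -0.56 on the log2 scale (standard error 0.75, adjusted p = 0.911 in limma), and it ran from -1.07 without pioglitazone replicate 3 to 0.10 without pioglitazone replicate 1.

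Mice of the same replicate number deviated together across the array, and a fit with the number as a block was therefore run as well. The labels do not say that these mice were paired, and the block rests on the correlation in the same data. With this replicate block the brighter Igfbp4 probe passed the unadjusted threshold at the same log2 fold change of -0.56 (standard error 0.23, unadjusted p = 0.0492 and adjusted p = 0.575 in limma). The dimmer Igfbp5 probe also passed (unadjusted p = 0.00703, adjusted p = 0.575 in limma). That made 2 of 13 members, while 8.6% of all probes were called in the blocked fit and 0 passed adjustment. The dimmer Igfbp4 probe was at 0.356, 0.497, 0.573 and 0.431 in vehicle-treated and at 0.421, 0.383, 0.490 and 0.275 in pioglitazone-treated mice. Mouse 3 was again the highest in each group, and the log2 fold change was -0.25 (standard error 0.22, adjusted p = 0.879 in limma), with no call in either fit.

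Igfbp2, one of the binding proteins with an integrin-binding motif, had the lowest ratio of means among the brightest probes of the 10 genes. It was at 21.5, 32.4, 40.2 and 18.3 in vehicle-treated and at 24.1, 15.2, 23.2 and 17.5 in pioglitazone-treated mice. Vehicle mice 2 and 3 were above all 4 pioglitazone-treated mice, and vehicle mice 1 and 4 lay among them. The means were 28.1 ± 10.1 and 20.0 ± 4.3 (SD, n = 4 each), a ratio of 0.712. Igfbp2 had a log2 fold change of -0.45 (standard error 0.27, adjusted p = 0.848 in limma), and the 95% interval of the ratio was 0.481 to 1.12. Without vehicle replicate 4 it reached an unadjusted p of 0.0437 in limma (-0.63), and without vehicle replicate 3 it was -0.25.

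Igfbp1, the insulin-repressed member, was at 0.578, 0.506, 0.660 and 0.577 in vehicle-treated and at 0.525, 0.644, 0.710 and 0.722 in pioglitazone-treated mice. All values were above the limit of 0.2 and within 1.43-fold of each other, and 2 of the 4 pioglitazone values lay above every vehicle value. The means were 0.580 ± 0.063 and 0.650 ± 0.090 (SD, n = 4 each). Its log2 fold change was 0.16 (standard error 0.16, adjusted p = 0.887 in limma), and the 95% interval of the ratio was 0.876 to 1.42. Igfbp1 is the member with the insulin response element printed above.

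Igfbp3, the main carrier of IGF in blood, was near the limit at 0.20, 0.341, 0.436 and 0.287 in vehicle-treated and at 0.220, 0.338, 0.467 and 0.196 in pioglitazone-treated mice. Igfbp6, which prefers IGF2 to IGF1, was at 5.56, 6.75, 8.17 and 5.21 and at 5.59, 7.47, 6.29 and 3.80. Neither separated the groups, with log2 fold changes of -0.08 (standard error 0.32, adjusted p = 0.974 in limma) for Igfbp3 and -0.17 (0.23, adjusted p = 0.915 in limma) for Igfbp6. In Igfbp3 mouse 3 was the highest in both groups.

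Some members varied together between individual mice, a relation chosen for testing after the values were seen. All 45 pairs of the 10 genes were compared on log2 values over the 8 mice, with the brightest probe of each gene and an exact permutation test. Igf2r and Igfbp3 had a Pearson r of 0.970 (2-sided exact permutation p = 0.000446, adjusted p = 0.0190 over the 45 pairs) and a Spearman rho of 0.881 (exact permutation p = 0.00724, adjusted p = 0.163). Igf2r and Igfbp4 had an r of 0.911 (exact permutation p = 0.000843, adjusted p = 0.0190) and a rho of 0.929 (exact permutation p = 0.00223, adjusted p = 0.100). Without the 2 mice farthest from the median of Igf2r, r was 0.991 with Igfbp3 and 0.842 with Igfbp4. With the group means removed, the values of r were 0.970 and 0.924. These tests take the 8 mice as independent and ignore the replicate number, although mice of the same number deviated together. With the means of the replicate numbers removed as well, which leaves 3 degrees of freedom and no test, r was 0.908 for Igf2r with Igfbp3 and turned to -0.388 for Igf2r with Igfbp4. The relation of Igf2r to Igfbp4 was therefore not seen within replicate numbers. Without the replicate number taken into account, these 2 pairs of 45 passed adjustment of the Pearson test, while 0 passed that of the rank test. Igf1r and Igfbp2 ran in opposite directions (r = -0.854, exact permutation p = 0.00685, adjusted p = 0.0804). Leaving out the 2 mice farthest from the median of Igf1r, which also narrows its range, gave an r of -0.352. For this pair r was -0.871 with the group means removed and -0.946 with the means of the replicate numbers removed as well.

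Igf1, Igf2r, Igfbp3, Igfbp6 and the brighter Igfbp4 probe had mice 2 and 3 above mice 1 and 4 in both groups. Some but not all luteal markers shared this split. How many of all probes share it was not counted, so the counts here tie it to no cell type. Outside the luteal list it was found in 1 of 11 theca and interstitial markers, Col1a1, and in 1 of 7 endothelial ones, Pecam1. Of the other pathway genes, Ctsd, Adam12, Pik3r2 and Stat5a also had it. Among the luteal markers, 4 of the 8 measured had it. One of them was Star, which brings cholesterol into mitochondria for steroid synthesis, at 22.8, 36.7, 40.4 and 10.3 in vehicle-treated and at 6.40, 14.2, 39.6 and 7.08 in pioglitazone-treated mice. Another was Akr1c18, the enzyme that inactivates progesterone as the corpus luteum regresses, at 0.674, 36.2, 12.8 and 1.62 and at 0.578, 11.6, 5.27 and 0.910. In contrast, Fdx1, an electron donor for steroid synthesis, was highest in mouse 1 of each group, at 227 and 223, as was Hsd17b7, at 0.833 and 0.859. No stage of the estrous cycle is stated, and the part of luteal content in the spread of Igf1, Igf2r, Igfbp3, Igfbp4 and Igfbp6 was not tested.

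**Figure D3:**
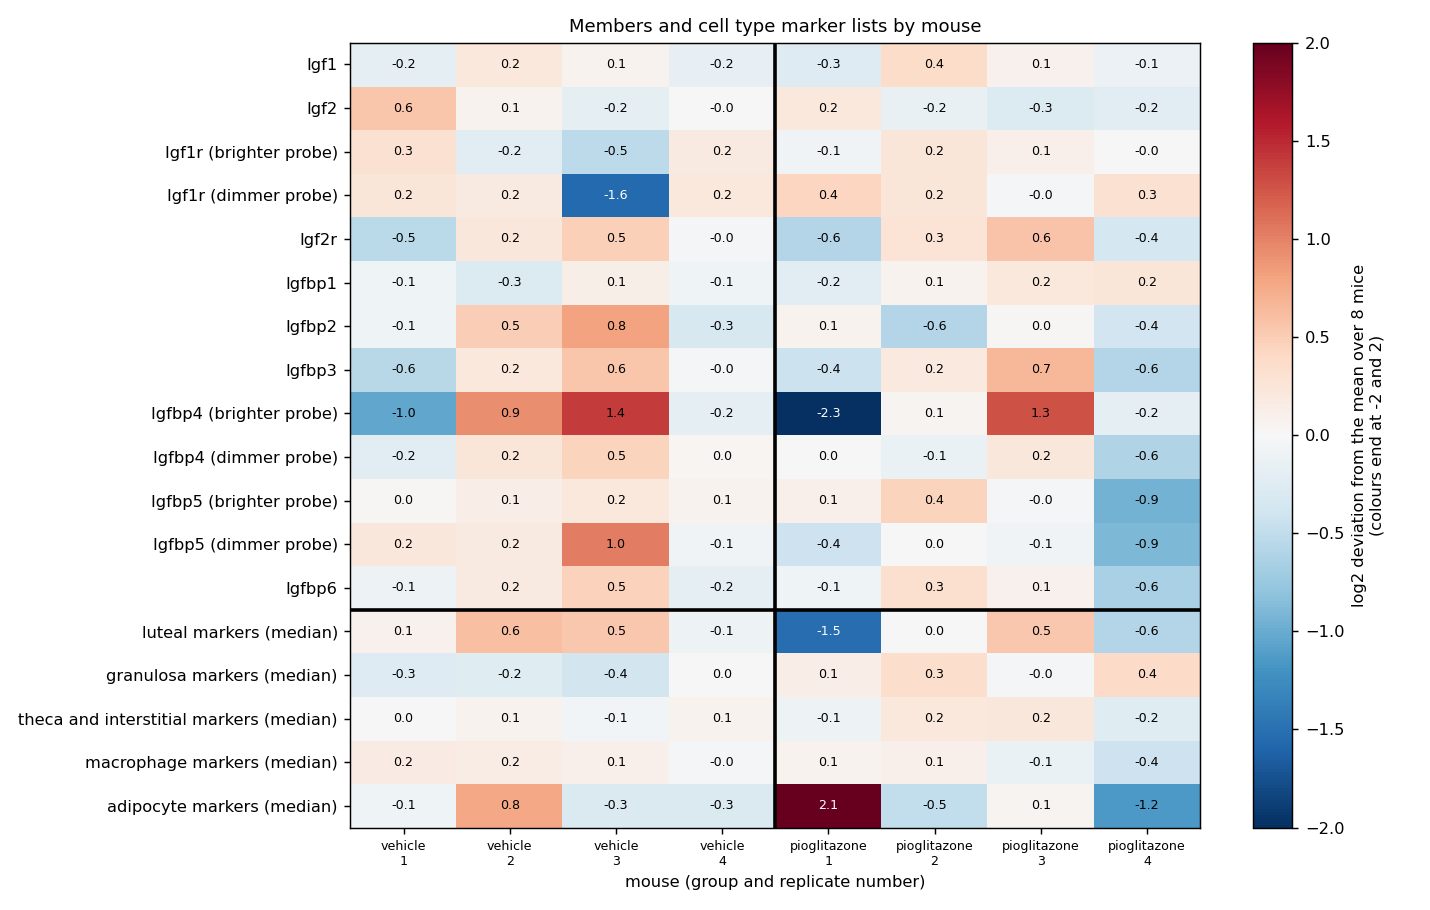
Log2 deviation of each IGF probe from its mean over the 8 mice (upper rows) and the median deviation of 5 lists of cell type markers (lower rows), by mouse. The brighter Igfbp4 probe and the luteal markers were lowest in pioglitazone mouse 1, and both were high in mouse 3 of each group.

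The test did not show neighbouring genes of the family varying together, and with 8 mice it cannot exclude that they did. Igfbp1 and Igfbp3 are next to each other on chromosome 11, and Igfbp2 and Igfbp5 on chromosome 1. Over the 8 mice r was 0.251 for Igfbp1 and Igfbp3 (exact permutation p = 0.535, adjusted p = 0.693) and 0.248 for Igfbp2 and Igfbp5 (exact permutation p = 0.539, adjusted p = 0.693). Within vehicle-treated and within pioglitazone-treated mice, r was 0.314 and 0.334 for Igfbp1 and Igfbp3. For Igfbp2 and Igfbp5 it was 0.921 and 0.0195, from 4 mice each and without a test.

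Among all 13583 named probes at 0.5 or more in every mouse, those most like a member over the 8 arrays were sought as a description. With so many probes and 8 arrays, high values of r arise readily. The closest to Igf2r was Col1a1, a collagen gene of connective tissue (r = 0.990), which was at 0.793, 4.15, 11.1 and 2.51 in vehicle-treated and at 0.508, 4.59, 9.13 and 1.13 in pioglitazone-treated mice. The closest to Igfbp4 was Islr (r = 0.988), followed by Ogfr, the opioid growth factor receptor (0.987). The closest to Igf1r was Insr (r = 0.972), the gene for its nearest relative, the insulin receptor. Igf1 was closest to Slc5a4b, a transporter gene of the glucose cotransporter family (0.959), and to a probe of Ptgfr, the prostaglandin F receptor of luteal cells (0.946). Igf2 was closest to Prelid2 (0.986), Igfbp2 to Eif4e2, a cap-binding protein (0.985), Igfbp6 to Rab33b (0.972), Igfbp1 to Dnaaf4 (0.955) and Igfbp5 to Pank3, a kinase of coenzyme A synthesis (0.937).

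The wider pathway was read from 58 other genes, of which 47 had a probe and 45 were tested by the brightest probe. Lower with pioglitazone at unadjusted p under 0.05 in limma were 2 of the 45, and 0 were higher. Over the brightest probes of all named genes 4.85% were called, 3.27% lower, so the pathway count was near the background. Negative log2 fold changes were found in 29 of the 45, with a median of -0.05 against -0.04 for all named genes. After adjustment limma called 0 of the 45.

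Plagl1, a zinc finger factor that acts on a network of imprinted genes including Igf2, was at 7.94, 7.01, 7.66 and 6.80 in vehicle-treated and at 6.33, 6.64, 5.48 and 4.74 in pioglitazone-treated mice. Each pioglitazone value lay below every vehicle value, as in 4.59% of all probes tested. The log2 fold change was -0.35 (standard error 0.15, unadjusted p = 0.0436 and adjusted p = 0.837 in limma). Ide, a protease that breaks down insulin and IGF2, was at 4.48, 7.75, 4.82 and 5.52 and at 3.40, 4.07, 4.90 and 3.76, with overlap of pioglitazone mouse 3. Its log2 fold change was -0.46 (standard error 0.20, unadjusted p = 0.0468 and adjusted p = 0.837 in limma). Both calls were lost with quantile normalization (-0.28 for Plagl1 and -0.39 for Ide), and leaving out single mice ended that of Plagl1 in 6 of 8 cases and that of Ide in 5 of 8.

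The genes of IGF release and carriage gave 0 calls of 10 tested. The smallest unadjusted p was that of Stc1, which encodes stanniocalcin, an inhibitor of the protease from Pappa, with a mean of 1.15 ± 0.43 after vehicle and of 0.764 ± 0.033 after pioglitazone (SD, n = 4 each). Next were Igfbpl1 (means of 1.03 and 1.20), Igfbp7 (218 and 182) and the protease gene Adam28 (0.376 and 0.299). Pappa itself had means of 0.920 and 0.994. Of 6 tested insulin ligand and receptor family genes 1 was called, Ide, and Insr had means of 2.30 and 2.34, Insl5 of 59.5 and 62.1 and Insl6 of 2.38 and 2.21.

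The adaptors and kinases beneath the receptors gave 0 calls of 15 tested, with 11 negative log2 fold changes and a median of -0.14. Akt1, the kinase through which both receptors signal, was at 27.6, 24.8, 23.2 and 20.0 in vehicle-treated and at 22.1, 18.0, 19.3 and 16.3 in pioglitazone-treated mice. Its log2 fold change was -0.33 (standard error 0.16, unadjusted p = 0.0625 and adjusted p = 0.837 in limma). With the replicate block limma gave it an unadjusted p of 0.0373, which made 3 called pathway genes of 45, while 8.02% of all named genes were called in that fit. Pik3r1, a regulatory subunit of phosphoinositide kinase, had means of 29.0 and 34.7, the receptor-binding adaptor gene Grb14 of 43.0 and 51.8 and the phosphatase gene Ptpn11 of 4.08 and 3.05. Among 10 tested regulators of IGF transcripts and of the growth hormone axis, Plagl1 was the 1 called, and Igf2bp3 and Igf2bp1, which bind Igf2 messenger RNA, had means of 0.373 and 0.275, and of 10.6 and 8.92. Jak2, the kinase of the growth hormone receptor, had means of 1.54 and 1.82.

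**Figure D4:**
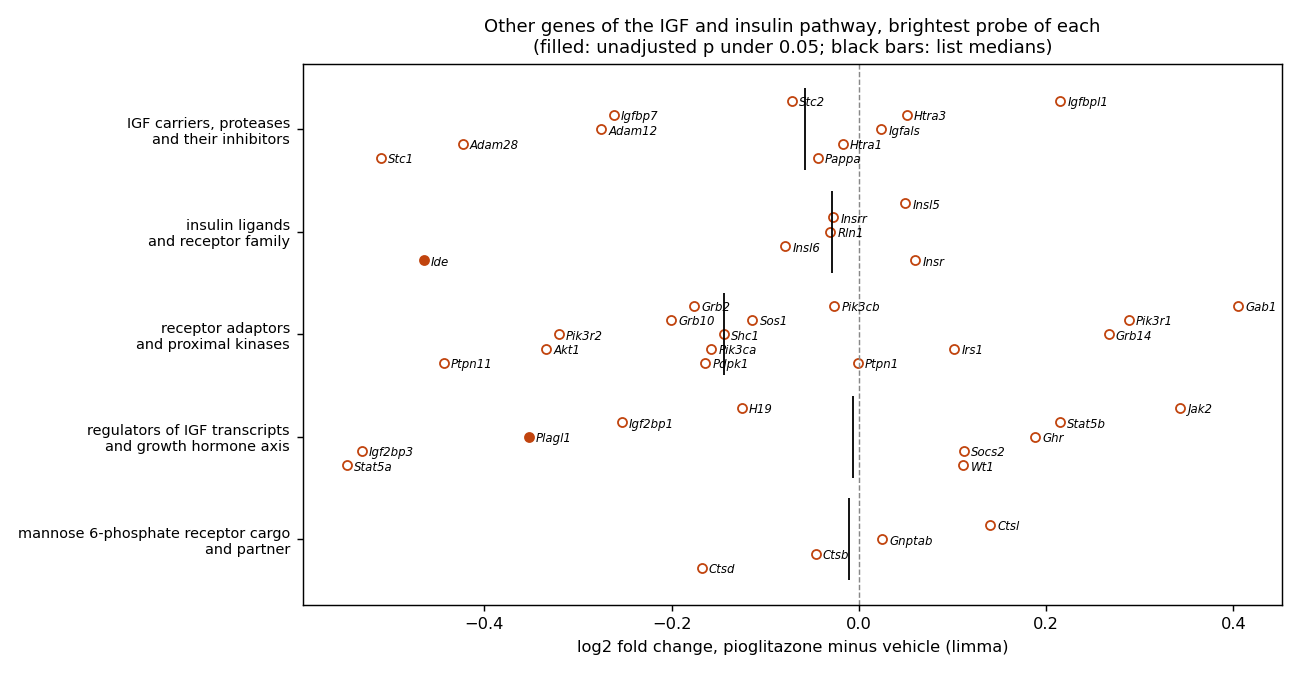
Log2 fold change of pioglitazone minus vehicle for the brightest probe of each other gene of the pathway, by list, with list medians as black bars. The 2 filled points, Ide at -0.46 and Plagl1 at -0.35, are those called at unadjusted p under 0.05.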

How the data were processed

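Ovarian RNA of 8 LY mice, 4 per group, was measured on CodeLink arrays. The deposited intensity values are linear, background-corrected with the CodeLink software and scaled by the authors to the median of the slide in GeneSpring. The methods also name a per-gene median step, of which the values show no trace. Spots coded -9999 were missing. After a second scaling to the array median and a floor of 0.05, limma 3.58.1 in R 4.3.3 was fitted to the log2 values of all probes that had 3 or more values per group and reached a mean of 0.2 in either group, with Benjamini-Hochberg adjustment over all of them. The script was tested on simulated data. Probes were named from the platform annotation (21615 with 1 gene, 681 with several), and probes with several genes were left out.

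Members and gene lists were chosen with earlier results of these data known. Genes named are all members, up to 4 genes per pathway list with the smallest unadjusted p, and the closest genes by r. Chosen after their values were seen were H19, Pappa, Alb, Apoa1, Adipoq, Star, Akr1c18, Fdx1, Hsd17b7, Pecam1, Adam12, Pik3r2 and Stat5a. The comparison of pairs of members was chosen in the same way. The marker lists cover granulosa, luteal, theca and interstitial, endothelial, macrophage, adipocyte, hepatocyte, oocyte, oviduct and surface epithelium, and red blood cells.

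Replicate numbers were taken from the labels, which do not say that mice of equal number were paired. With group means removed, vehicle and pioglitazone arrays of equal number correlated across probes at 0.515, 0.181, 0.274 and 0.232 for numbers 1 to 4, all above 0.1, so the number was also used as a block. It did not always give the closest pairing, since vehicle mouse 2 correlated at 0.369 with pioglitazone mouse 3. Alternatives covered the floor, normalization, filter, weights, test, block and single arrays left out.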

Additional observations from a re-analysis of the deposited data

Results flagged for a closer look

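Vehicle mouse 3 stood far from the other 3 vehicle mice on the dimmer Igf1r probe, at 0.762 against 2.55 to 2.64. Its gap to the nearest value was 0.951 of the range of the group. Of 26 groups of 4 values examined among the IGF probes this was the 1 past Dixon's limit, and chance flags about 1 in 20. The brighter Igf1r probe was also lowest in this mouse, at 9.59.

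A probe left out of the members, because the annotation assigns it to both Airn and Igf2r, was higher with pioglitazone. Airn is the noncoding RNA gene antisense to Igf2r. The probe was at 0.0956, 0.240, 0.105 and 0.0101 in vehicle-treated mice, 3 of them under the limit of 0.2, and at 0.303, 0.340, 0.280 and 0.288 in pioglitazone-treated mice. The means were 0.112 and 0.303, with no overlap between groups, as in 4.59% of all probes tested (exact permutation p = 0.0286, 2-sided, the smallest possible with 8 mice). The log2 fold change was 1.53 (standard error 0.39, adjusted p = 0.837 in limma), and 0.53 with values under 0.2 raised to 0.2. The probe reached the required mean of 0.2 only in the pioglitazone group and was tested only for that reason. These values are therefore no support for a change. Which of the 2 transcripts the probe measures was not tested.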

How the results depend on the processing

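Of the log2 fold changes of the 13 IGF probes and of Ide, Plagl1 and Akt1, 282 values under the alternatives kept their direction and side of the unadjusted threshold, 28 lost a call, 7 gained one and 20 turned in sign. With array weights the sign turned in Igf2r (0.22), Igfbp3 (0.19), Igfbp4 (0.19 on the brighter probe) and Igfbp6 (0.076), and with quantile and cyclic loess normalization in Igf2r (0.0205 and 0.0198). With 1 array left out, log2 fold changes ran from -0.082 to 0.13 in Igf1, from -0.020 to 0.26 in the brighter Igf1r probe, from -0.26 to 0.13 in Igf2r, from -0.32 to 0.10 in Igfbp3, from -1.07 to 0.10 in the brighter Igfbp4 probe, from -0.40 to 0.056 in the brighter Igfbp5 probe and from -0.31 to 0.019 in Igfbp6. The cause was not tested. The count of IGF probes called, 1 of 13, was 0 with at least 0.2 required in every array, where the dimmer Igfbp5 probe was not tested, and 0 with the test of the methods, with weighted arrays and with linear values. It was 2 with the replicate block, and ran from 0 to 2 with 1 array left out. The count of pathway genes called, 2 of 45, was 1 with quantile normalization, cyclic loess normalization and an intensity trend, 0 without a filter on dim probes, and from 0 to 3 with 1 array left out. The count over all probes, 1685 at unadjusted p under 0.05, was 2635 with the replicate block, and from 737 (without pioglitazone replicate 4) to 2443 (without pioglitazone replicate 1) with 1 array left out. Of the 1685 probes 603 were higher and 1082 lower, against 685 and 800 with quantile and 723 and 823 with cyclic loess normalization. In each of these fits 0 probes passed adjustment. The replicate block changed no call of a member other than that of Igfbp4. Both pairs of members that passed adjustment did so under 5 other floors and scalings, chosen after seeing the data. With the replicate block, added in the same way and giving r without a test, Igf2r and Igfbp4 turned to -0.388 and Igf2r and Igfbp3 stayed at 0.908. Dim probes such as that of Igfbp3 and the dimmer one of Igfbp5 lie near background, where a change is hardest to measure.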

Other observations

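The antisense transcripts of both ligands were dim. For Igf1os the mean was 0.417 ± 0.123 after vehicle and 0.525 ± 0.142 after pioglitazone (SD, n = 4 each), with a log2 fold change of 0.35 (standard error 0.28, adjusted p = 0.876 in limma). The Igf2os probe was under 0.2 in 7 of 8 mice and was not tested.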
